A study of Mus musculus with 8 samples.

Results

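The cells described are the monocytes of transplanted mouse lungs. They are the cells that the authors' annotation calls monocyte, all of them in a single cluster (cluster 4), and they number 1968 of the 20778 cells sequenced (9.47%). The grafts came from 8 male C57BL/6 (B6) recipients of an orthotopic left lung transplant, 1 graft and 1 droplet RNA sequencing library per mouse. In the 5 mice of the B6→B6 group (labelled B6B6) the donor was also B6, and these grafts are the syngeneic controls. In the 3 mice of the HLA→B6 group (labelled HLAB6) the donor carried a human HLA-A2.1 transgene on the B6 background, so the HLA-A2.1 molecule is the foreign antigen. No mouse of either group received immunosuppression, and all grafts were taken 1 month after transplantation. The model has a single transgenic donor line, the recipients' own cells enter the grafts of both groups, and donor and recipient monocytes were not told apart.

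Monocytes are made in the bone marrow, circulate in blood and enter inflamed tissue. In the mouse, classical monocytes carry the surface protein Ly6C and the chemokine receptor CCR2, which draws them out of the marrow toward CCL2, and in tissue they can become macrophages or antigen-presenting cells. Patrolling (nonclassical) monocytes have lost both proteins, depend on the nuclear receptor NR4A1, carry the fractalkine receptor CX3CR1 and crawl along the vessel wall, and the lung capillaries hold many of them.

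The number of monocytes in the B6→B6 grafts 1 to 5 was 49, 100, 183, 148 and 54. In the HLA→B6 grafts 1 to 3 it was 1077, 242 and 115, so HLA→B6 mouse 1 held 54.7% of all monocytes. Counts were therefore summed within each mouse and every mouse entered a comparison as 1 replicate. The median depth per mouse lay between 1869 and 2861 unique molecular identifiers (UMIs, 1 per captured transcript) per monocyte, and the summed monocytes of a mouse held between 108878 and 2593836 UMIs. The libraries of B6→B6 mice 1, 2 and 3 and of HLA→B6 mouse 2 shared more cell barcodes with each other than their cell numbers give. Over all libraries 31 monocytes were left out of an alternative because of a shared barcode, 9 of them in these 4 libraries and 19 in HLA→B6 mouse 1, and without them 2 genes were called between the groups in place of 1. The numbers in the names of the HLA→B6 cells (2, 3 and 5) differ from the mouse numbers in the table of cells (1, 2 and 3), and the latter were used.

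The annotated cells were described by 3 markers. The authors drew the clusters from these same expression values, so this is no independent check of the annotation. Plac8, a small cysteine-rich protein of myeloid cells, had a UMI in 82.3% of the monocytes, Ccr2 in 44.1% and Ly6c2, which encodes Ly6C, in 36.9%, at a median of 2155.5 UMIs per cell. In T cells, at a median of 1648 UMIs, the shares were 7.97% for Plac8, 8.38% for Ccr2 and 19.6% for Ly6c2, a gene that some T cells also use. In CPM (a gene's part of all UMIs in the summed cells of a mouse, on a fixed scale), the median of Plac8 over the mice was 4778 in monocytes (range 3334 to 6125), 707.0 in B cells and 15.3 in alveolar macrophages, with the next highest median, 2121, in mast cells. Plac8 and Ccr2 had their highest median in monocytes among the 11 cell types. Ly6c2, at a median of 822 CPM, stood below plasma cells (1688 CPM) and natural killer cells (1072 CPM) and above the other types.

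The genes that stood farthest above every other cell type came from both kinds of monocyte. These levels come from genes that also shaped the clusters, so they are a description and were not tested. Adgre4, an adhesion receptor of the F4/80 family, had a median of 275 CPM in monocytes and 6.50 CPM in the next type, the cells labelled myeloid cell. Treml4, a receptor that binds dead cells, had 237 CPM against 12.7 CPM in leukocytes. Cd300e, an activating receptor of monocytes, had 156 CPM against 9.72 CPM in myeloid cells. F13a1, the catalytic subunit of coagulation factor XIII and a gene of classical monocytes, had 224 CPM against 16.9 CPM in alveolar macrophages. Cx3cr1 had 216 CPM against 38.8 CPM in natural killer cells. The C-type lectin receptors Clec4a1 (629 CPM against 67.6 CPM in myeloid cells) and Clec4a3 (862 CPM against 158 CPM in alveolar macrophages) were among the more abundant genes of this kind. The other genes in the leading 15 were Arhgef10l, Ldlrad3, Eno3, Smpdl3b, Ifi204, Gm36161, Ms4a6c and Gm21188, and each of the 15 was higher in the monocytes than in that next type in every mouse in which both were measured. Of the 2589 genes with a median of at least 50 CPM in monocytes, 363 had their highest median there.

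Markers of other cells were measured in the monocytes of each mouse. Siglecf and Marco, which define alveolar macrophages, Ly6g, which defines neutrophils, and the surfactant gene Sftpa1 were at 0 in all monocytes. The whole list of 10 alveolar macrophage markers summed to 380 to 517 CPM in the B6→B6 mice and 288 to 970 CPM in the HLA→B6 mice, most of it from Ear2, a gene that also marked the patrolling side (931 CPM against 86.7 CPM on the classical side). The summed level of 10 dendritic cell markers lay between 37.5 and 312 CPM in the B6→B6 mice and between 33.8 and 136 CPM in the HLA→B6 mice. The 8 B cell and plasma cell (PC) markers lay between 45.9 and 194 CPM and between 79.8 and 534 CPM, and 10 neutrophil markers between 80.1 and 285 CPM and between 87.9 and 618 CPM. Of the B cell and PC markers, the authors gave Ighm and Igkc to SoupX as genes that report free RNA. Scrublet marked 54 of the monocytes (2.74%) as doublets, 48 of them in HLA→B6 mouse 1.

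Counting the genes of both kinds of monocyte in each cell showed that the cluster has a classical and a patrolling side. Each monocyte was placed by the number of genes with a UMI among 10 genes of patrolling monocytes (Ace, Treml4, Cd300e, Spn, Eno3, Adgre4, Nr4a1, Pou2f2, Cx3cr1 and Gngt2) minus the number among 10 genes of classical monocytes (among them Ly6c2, Ccr2, Vcan, F13a1, Chil3, Mgst1, Hp, Fn1 and Ms4a4c). The differences had a peak of 134 cells at -6 and another of 225 cells at 5, with 53 cells tied at 0. The patrolling side held 1124 cells, the classical side 791, and 204 cells (10.4%) lay within 1 gene of the cut. The sides are ranges of a count and not clusters of the annotation. Cells on the classical side were deeper, with a median of 3405 UMIs against 1622 on the patrolling side.

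**Figure D1:**
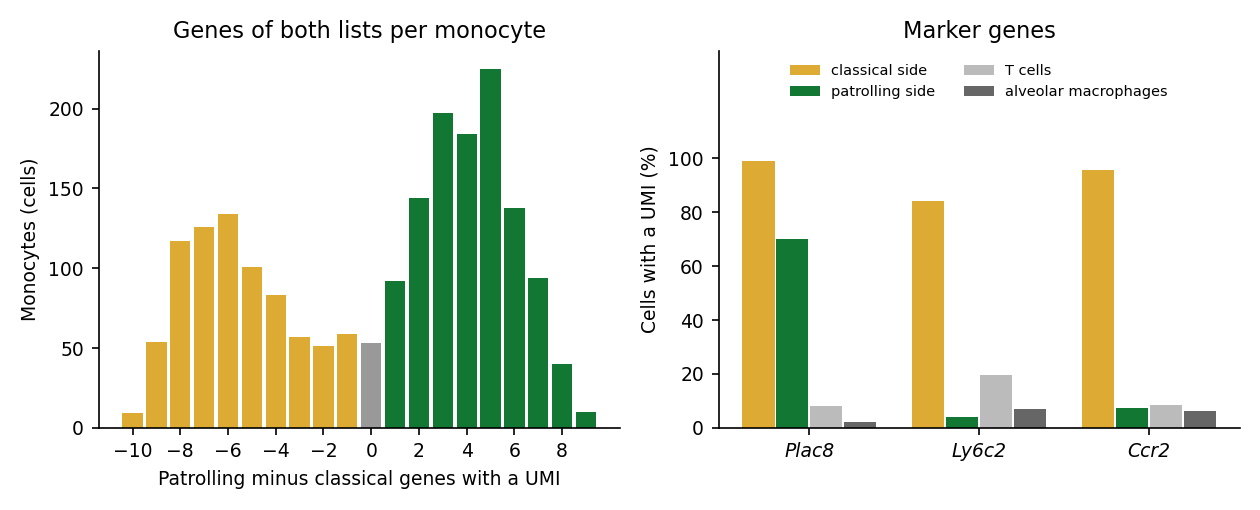
Left, number of monocytes (vertical axis, cells) at each difference between the number of patrolling and of classical genes with a UMI (horizontal axis), with the classical side in yellow, ties in gray and the patrolling side in green; right, percentage of cells with a UMI of Plac8, Ly6c2 and Ccr2 on each side, in T cells and in alveolar macrophages. The differences peak at -6 and at 5, and Plac8 is found on both sides (99.1% and 70.2%) while Ly6c2, a gene of the cut, is found in 3.91% of the patrolling side.

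Of the 3 markers, Plac8 had a UMI in 99.1% of the cells on the classical side and 70.2% on the patrolling side. Ly6c2 and Ccr2, which were used for the cut, had a UMI in 84.1% and 95.6% of the classical side and in 3.91% and 7.30% of the patrolling side. The last values lie below the 19.6% and 8.38% of T cells, but the cut by these genes itself lowers them on the patrolling side. After each cell was thinned to 1000 UMIs, Plac8 was found in 97.3% and 65.1% of the cells of the sides.

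Genes that took no part in the cut also separated the sides, here as a description in the 7 mice with at least 10 cells on each side. On the patrolling side the leading genes were Pglyrp1, an antibacterial peptidoglycan-binding protein, with a median of 1185 CPM against 20.4 CPM on the classical side, and Fabp4, a fatty acid-binding protein, with 658 CPM against 10.0 CPM. The survival gene Bcl2 (112 CPM, listed at 0 in the median classical sum), the sphingosine 1-phosphate receptor gene S1pr5 (160.0 CPM against 1.75 CPM) and Fcgr4, a receptor for IgG (833 CPM against 65.2 CPM), followed the same direction. On the classical side the leading genes were Mmp8, a collagenase, with a median of 102 CPM and 0 CPM on the patrolling side, Cd177 (148 CPM against 6.37 CPM) and the chemokine gene Ccl2, the ligand of CCR2 (106 CPM against 2.37 CPM). Isg15, an interferon-stimulated gene, had 245 CPM on the classical and 28.6 CPM on the patrolling side, and Wfdc17 had 2782 CPM against 439 CPM. Each of the 12 leading genes of either side, which include the survival genes Bcl2a1d and Bcl2a1b and the tetraspanin gene Cd9, was higher on that side in 7 of 7 mice.

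The first comparison between the groups asked whether monocytes made up more of the rejecting grafts. The difference of means favored HLA→B6 grafts at each of 3 denominators, but at none was it past the threshold. Among immune cells, the monocytes of the B6→B6 mice 1 to 5 made up 7.97%, 8.23%, 10.9%, 5.01% and 7.06%, and those of the HLA→B6 mice 23.7%, 9.33% and 13.3%. HLA→B6 mouse 1 stood far above all others, and HLA→B6 mouse 2 lay within the B6→B6 range. The means were 7.83% ± 2.12 (SD, n = 5) and 15.4% ± 7.45 (SD, n = 3), and the difference of 7.62 percentage points gave p = 0.0714 in a two-sided exact permutation test over the 56 splits of the mice. The smallest p this test can give is 0.0357. Among mononuclear phagocytes, here the cells labelled monocyte, alveolar macrophage or myeloid cell, the monocytes made up 19.6%, 22.1%, 41.0%, 14.8% and 30% in B6→B6 mice and 64.1%, 26.05% and 41.5% in HLA→B6 mice. The groups overlapped, the difference was 18.4 points (exact permutation p = 0.143), and it was 8.29 points without HLA→B6 mouse 1 and 13.9 points without all cells with shared barcodes, which took out 250 alveolar macrophages and 76 myeloid cells beside the 31 monocytes. Of all cells the difference was 5.03 points (exact permutation p = 0.107) and 2.30 points without HLA→B6 mouse 1.

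**Figure D2:**
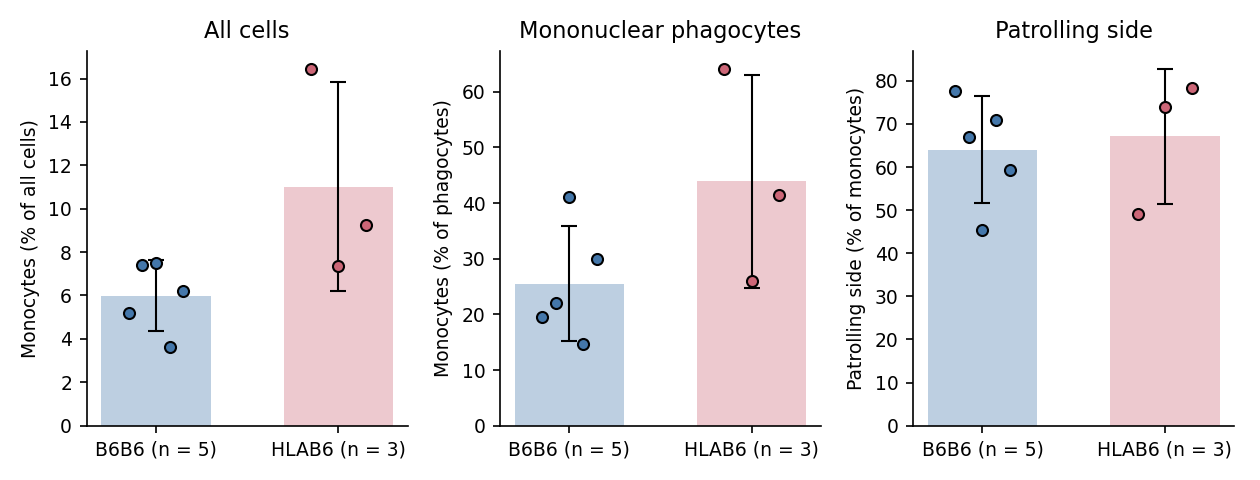
Monocytes as a percentage of all cells (left) and of mononuclear phagocytes (center), and the patrolling side as a percentage of monocytes (right), by group; points are mice, bars are means and error bars are SD (n = 5 B6B6 and n = 3 HLAB6). The HLAB6 mouse with the highest point in the first 2 panels (16.5% and 64.1%) has the lowest share on the patrolling side (49.2%) of its group.

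The balance of the sides was next compared. The patrolling side held 77.6%, 67.0%, 45.4%, 70.9% and 59.3% of the monocytes in the B6→B6 mice and 49.2%, 74.0% and 78.3% in the HLA→B6 mice. Both groups spanned nearly the same range, with means of 64.0% ± 12.4 (SD, n = 5) and 67.1% ± 15.7 (SD, n = 3), and the difference of 3.12 points was smaller than the spread between mice (exact permutation p = 0.714). Its sign was negative without B6→B6 mouse 3 (-1.54 points), HLA→B6 mouse 2 (-0.286 points) or HLA→B6 mouse 3 (-2.43 points). Thinned to 1000 UMIs, the means were 62.4% and 64.3%.

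Gene expression was then compared between the groups in the summed monocytes of each mouse, over 4352 genes, with edgeR's quasi-likelihood F test and Benjamini-Hochberg adjustment. A single gene fell in HLA→B6 grafts at adjusted p under 0.05 (0.0230% of the genes tested) and 0 rose. At an unadjusted p under 0.05 there were 126 higher (2.90%) and 93 lower (2.14%) genes, and DESeq2 called 6 higher and 9 lower. The p-values measure the spread between the mice of this series.

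The gene that fell was Fos, an immediate early gene that encodes a subunit of the transcription factor AP-1. After scaling by TMM (trimmed mean of M values), its level was 3377, 2659, 2975, 2851 and 1855 CPM in the B6→B6 mice and 761, 1126 and 969 CPM in the HLA→B6 mice. All HLA→B6 mice lay below all B6→B6 mice. The log2 fold change was -1.53 with an SE of 0.202 (edgeR adjusted p = 0.00715), and Fos passed the threshold in 21 of 21 alternatives, with an adjusted p of at most 0.0345 and a log2 fold change between -1.67 and -1.39.

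Fos belongs to a list of 15 immediate early and heat shock genes, which cells switch on within minutes of a stimulus or stress, handling included. Of the 14 that were tested, 14 had a log2 fold change below 0, against 51.2% of all genes tested. Their median was -0.90, against -0.01 for all genes, and it was -0.56 without HLA→B6 mouse 1. In 6 of the 14 the HLA→B6 mice all lay below the B6→B6 mice, against 1.68% of all genes, while the adjusted p was under 0.05 only for Fos. Dusp1, a phosphatase that switches off MAP kinases, was at 4108, 2920, 2946, 2471 and 1746 CPM in B6→B6 mice and at 1142, 1568 and 1206 CPM in HLA→B6 mice (adjusted p = 0.0922 in edgeR and 0.00266 in DESeq2). Junb, which encodes another AP-1 subunit, was at 1480, 1439, 1615, 1982 and 1136 CPM and at 817, 863 and 624 CPM (edgeR adjusted p = 0.0915). Fosb, of the same family, was at 133, 143, 178, 115 and 83.4 CPM and at 16.2, 52.6 and 61.0 CPM (edgeR adjusted p = 0.0937). In all 3 genes the HLA→B6 mice lay below every B6→B6 mouse. Ier2 and Zfp36, which encodes an mRNA-destabilizing protein, did not overlap either (edgeR adjusted p = 0.433 and 0.446), whereas B6→B6 mouse 5, at 32.1 CPM of Atf3, lay inside the HLA→B6 range of 21.5 to 86.9 CPM. Among the heat shock genes the log2 fold changes were -1.32 for Hspa1a (SE 1.01), -0.52 for Dnajb1, -0.38 for Hspa8 and -0.31 for Hsp90aa1. The immediate early gene Jun was also at -0.38.

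**Figure D3:**
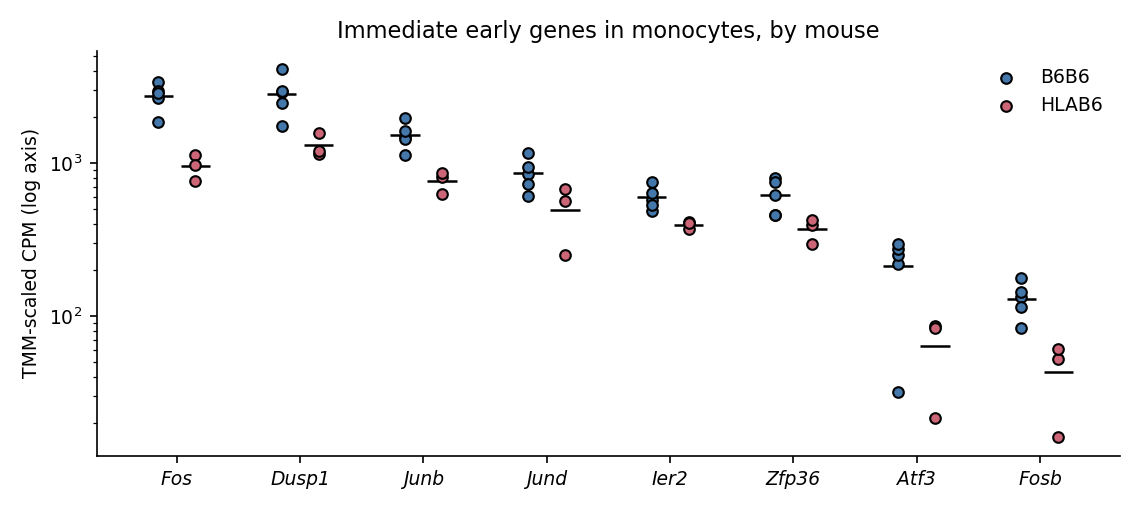
Level of 8 immediate early genes in the summed monocytes of each mouse (TMM-scaled CPM, log axis), B6B6 in blue (n = 5) and HLAB6 in red (n = 3); lines are group means. The HLAB6 mice lie below all B6B6 mice for Fos, Dusp1, Junb, Ier2, Zfp36 and Fosb and overlap with them for Jund and Atf3.

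The same list was read in the other cell types of these grafts, each fitted on its own. All 13 tested members were below 0 in myeloid cells (median log2 fold change -0.93), as were all 15 in lung structural cells (-0.82). The same held for all 11 in T cells (-0.70) and all 11 in leukocytes (-1.01), where the fit had 2 HLA→B6 mice. In B cells 11 of 12 (-0.61) and in natural killer cells 9 of 10 (-0.63) were below 0, and in alveolar macrophages 9 of 12 (-0.23). In the list, Egr1 fell in lung structural cells (-3.03, edgeR adjusted p = 0.0378) and Fosb in alveolar macrophages (-1.76, edgeR adjusted p = 0.0178). The share of all genes past the threshold in these fits is not given here, so these calls are not read as a result about the list. These fits share mice and libraries, so they are not independent of each other. For Fos alone the log2 fold change was -3.13 ± 0.708 (SE) in lung structural cells (edgeR adjusted p = 0.0871), -1.44 in T cells (0.599) and -1.37 in natural killer cells (0.998). It was -1.62 ± 0.612 (SE) in myeloid cells (edgeR adjusted p = 0.789) and -0.67 ± 0.282 (SE) in alveolar macrophages (edgeR adjusted p = 0.146). In each of these types, and in B cells, the Fos levels of the groups overlapped. They were 8.16 to 450 CPM in B6→B6 and 4.44 to 36.5 CPM in HLA→B6 lung structural cells, and 137 to 1927 CPM and 292 to 454 CPM in myeloid cells. In leukocytes they did not overlap (4277 to 5783 CPM and 1525 to 4019 CPM). The median depth of the monocytes was 2416 UMIs in B6→B6 and 2066 UMIs in HLA→B6 mice (means over mice, exact permutation p = 0.286), and when equal numbers of monocytes were drawn from all mice Fos had a log2 fold change of -1.505 (edgeR adjusted p = 0.00169).

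The promoters of 5 of these genes are shown because they are the members of the list that also passed the threshold on the patrolling side. They are given as the 150 bases before the annotated start in RefSeq (GRCm38.p6, 5′ to 3′ on the gene's strand). The windows are chr12:85473740-85473889 on the plus strand for Fos and, on the minus strand, chr7:19310046-19310195 for Fosb, chr8:84978749-84978898 for Junb, chr17:26508473-26508622 for Dusp1 and chr1:191183334-191183483 for Atf3. Each ends at the base before the first exon. Capitals mark TGACG, the core of the cAMP response element (CRE), on either strand (CGTCA on the other), and in Dusp1 the full CRE TGACGTCA, whose palindrome contains the core on both strands.
Fos: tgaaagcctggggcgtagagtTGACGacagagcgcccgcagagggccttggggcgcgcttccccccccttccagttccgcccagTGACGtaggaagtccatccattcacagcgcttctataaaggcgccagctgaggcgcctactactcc
Fosb: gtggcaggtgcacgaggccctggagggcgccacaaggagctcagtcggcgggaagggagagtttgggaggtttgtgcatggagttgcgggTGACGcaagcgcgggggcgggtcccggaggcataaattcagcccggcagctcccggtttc
Junb: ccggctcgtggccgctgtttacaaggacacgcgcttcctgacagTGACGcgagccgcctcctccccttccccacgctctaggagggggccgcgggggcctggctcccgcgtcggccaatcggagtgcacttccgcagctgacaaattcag
Dusp1: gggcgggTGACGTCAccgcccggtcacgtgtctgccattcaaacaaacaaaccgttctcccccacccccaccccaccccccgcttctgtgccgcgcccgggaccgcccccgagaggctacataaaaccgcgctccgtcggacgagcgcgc
Atf3: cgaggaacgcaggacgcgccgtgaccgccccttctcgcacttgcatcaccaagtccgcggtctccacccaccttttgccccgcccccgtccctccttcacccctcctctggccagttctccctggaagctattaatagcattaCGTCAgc
Among the 15 genes of the list, 11 had promoter windows in the set used here (12 windows), and Egr1, Ier2, Hsp90aa1 and Hspa8 had none. Windows on 1 chromosome were left out for the list but not for all promoters, so a gene without a window here may have had one before that step. The motifs of the genes without a window were not examined. In the 250 bases before the start, 6 of these 11 genes (the 5 shown and Dnajb1) had the core TGACG, and Jun, Jund, Zfp36, Hspa1a and Hspa1b did not. The core was found in 17.8% of 32851 promoter windows of this length. The full CRE was found in 1 gene (1.55% of all windows), the CArG box bound by serum response factor in 1 (Zfp36, 1.47%) and the AP-1 site TGANTCA in 0 (6.75%). The core was chosen as a motif after the sequences were seen, and a match is a description and not a binding site.

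No other list had a member past the threshold in the summed monocytes. Genes of the response to IFN-γ, the cytokine of T cells and natural killer cells that activates monocytes, were above 0 in 12 of 12 tested members (48.8% of all genes), with a median log2 fold change of 0.75. Of these 12, 2 did not overlap between the groups, against 2.00% of all genes. Igtp, an interferon-induced GTPase, was at 18.97, 13.02, 45.4, 12.5 and 19.3 CPM in B6→B6 mice and at 69.8, 60.4 and 53.8 CPM in HLA→B6 mice, without overlap (edgeR adjusted p = 0.281). The median of this list was between 0.63 and 1.08 when each mouse was left out in turn. Cxcl9, Cxcl10, Nos2, Ido1 and 8 other members of the list were too low to be tested.

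Genes of MHC I presentation and the immunoproteasome were above 0 in 16 of 16 tested members, with a median of 0.31. The most abundant were near 0, with log2 fold changes of 0.10 for B2m, 0.14 for H2-D1 and 0.32 for H2-K1. The nonclassical genes H2-Q6 (28.5, 19.5, 17.8, 37.4 and 6.42 CPM against 50.3, 95.5 and 53.8 CPM, edgeR adjusted p = 0.194) and H2-Q7 (38.0, 107, 49.3, 62.3 and 0 CPM against 125, 127 and 158 CPM, edgeR adjusted p = 0.534) did not overlap, but their sequences are close enough for reads to be split between them. Type I interferon-stimulated genes were above 0 in 16 of 19 members with a median of 0.27. MHC II genes were below 0 in 7 of 8 members with a median of -0.33, which became 0.02 without HLA→B6 mouse 3 and -0.95 without HLA→B6 mouse 2. The chemokine and chemokine receptor list had 5 of 11 members above 0 and a median of -0.02, and the macrophage differentiation list 4 of 9 and a median of -0.08. Classical monocyte genes were above 0 in 9 of 10 members (median 0.05) and patrolling monocyte genes in 6 of 10 (median 0.05). Without HLA→B6 mouse 1 these medians were -0.46 and 0.32, that of the chemokine list -0.45 and that of the macrophage differentiation list 0.45, so that all 4 rest on this library.

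Beyond these lists, the genes nearest to the threshold on the higher side were Ccnd2, which encodes the cell cycle regulator cyclin D2, and Bcl2a1a, of the BCL2 family of survival genes. Ccnd2 was at 56.9, 16.3, 41.4, 21.8 and 32.1 CPM in B6→B6 mice and at 95.8, 115 and 111 CPM in HLA→B6 mice (log2 fold change 1.75, edgeR adjusted p = 0.0551). Bcl2a1a was at 75.9, 100.9, 53.2, 68.6 and 77.0 CPM and at 138, 238 and 265 CPM (1.49, edgeR adjusted p = 0.0551), and its near-identical copies Bcl2a1b and Bcl2a1d can take some of its reads. Tlr2, a receptor for bacterial lipoproteins, was at 56.9, 45.6, 55.2, 40.5 and 64.2 CPM and at 114, 121 and 118 CPM (1.19, edgeR adjusted p = 0.0803). In none of the 3 did the groups overlap. Pura, Zfp36l1, Pecam1, Cd9 and Dpep2 followed with log2 fold changes between 1.02 and 1.499, and Gm26532, Crip1 and Emp3 stood on the lower side with values between -1.46 and -0.67.

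On the patrolling side alone, more genes passed the threshold. Over 2725 genes, 19 rose (0.697% of those tested) and 26 fell (0.954%) in HLA→B6 grafts, and in 43 of the 45 the mice of the groups did not overlap (3.63% of all genes lay higher and 4.04% lower without overlap). The 45 were selected by the test on these same mice, so this separation is no further evidence. Ccr2 and Chil3, among the 26, were used for the cut and are not counted as results. DESeq2 called 11 higher and 29 lower genes. The number rests on single libraries, since it was 6 without HLA→B6 mouse 1, 16 without B6→B6 mouse 2 and 18 without HLA→B6 mouse 2, and it was 9 with the cells that had at least 4 more patrolling than classical genes. The number of patrolling cells per mouse was between 32 and 105 in B6→B6 grafts and was 530, 179 and 90 in HLA→B6 grafts.

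The gene with the smallest p was Bcl2a1a, which was at 135, 158, 176, 103 and 146 CPM in the B6→B6 mice and at 403, 397 and 483 CPM in the HLA→B6 mice. Every HLA→B6 value was more than the highest B6→B6 value of 176 CPM, with a log2 fold change of 1.56 ± 0.207 (SE, edgeR adjusted p = 0.00198). Its copies Bcl2a1b (1.02) and Bcl2a1d (0.93) rose as well, with reads that can be shared among the copies. Zfp36l1, an mRNA-destabilizing protein related to Zfp36, was at 253, 186, 211, 160.0 and 146 CPM and at 483, 436 and 450.2 CPM, again without overlap (1.28 ± 0.193, edgeR adjusted p = 0.00217). Cd9, a tetraspanin of the cell surface, was at 691, 482, 739, 577 and 729 CPM and at 1403, 1251 and 1178 CPM (1.01, edgeR adjusted p = 0.00622). Pecam1, an adhesion molecule shared with endothelium, was at 118, 89.6, 106, 62.9 and 14.6 CPM and at 285, 125 and 252 CPM (1.49, edgeR adjusted p = 0.0316). Both Cd9 and Pecam1 belong to the list of adhesion and migration genes, of which 2 of 12 tested members passed the threshold and 5 were below 0 (median 0.05). The endothelial marker list, summed over all monocytes, was at 0 to 313 CPM in B6→B6 mice and 39.6 to 266 CPM in HLA→B6 mice. In all monocytes its 3 tested members were above 0 with a median log2 fold change of 1.30. This median was 0.76 to 1.498 when other mice were left out singly. Without B6→B6 mouse 4, which held the 313 CPM, it had no value. None of the members was abundant enough to be tested on the patrolling side, and the part of this list in the Pecam1 difference was not tested.

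The other genes that rose are given singly. Tlr2 had a log2 fold change of 1.63, Clec4e, which encodes the glycolipid receptor Mincle, of 1.36, and Fpr2, a formyl peptide receptor, of 1.57. Ccnd2 (1.88), the cyclin-dependent kinase inhibitor gene Cdkn1b (1.21), the cholesterol exporter gene Abcg1 (1.195), the ferritin heavy chain gene Fth1 (0.86), H2-Q6 (1.85), Pura (1.54), Vamp5 (1.47), Vasp (1.00) and AW112010 (2.06) rose as well. AW112010, an RNA induced by interferon, was at 0, 75.8, 127, 109 and 0 CPM in B6→B6 mice and at 540, 220 and 152 CPM in HLA→B6 mice.

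Immediate early genes made up 5 of the falls. Fos was at 2444, 1826, 2092, 1806 and 1662 CPM in the B6→B6 mice and at 169, 763 and 444 CPM in the HLA→B6 mice, without overlap (log2 fold change -2.13 ± 0.338, edgeR adjusted p = 0.00331). Fosb (-2.31), Atf3 (-2.24), Dusp1 (-1.01) and Junb (-0.999) fell as well. All 13 tested members of the list were below 0, against 50.1% of all genes, with a median of -0.80.

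Other genes fell beside them. Plac8, the marker of the whole cluster, was at 2393, 5318, 4345, 4891 and 5074 CPM in the B6→B6 mice and at 2391, 2213 and 1807 CPM in the HLA→B6 mice. B6→B6 mouse 1, with 38 patrolling cells, was level with HLA→B6 mouse 1, and the other B6→B6 mice lay far above (-1.04 ± 0.217, edgeR adjusted p = 0.0202). Crip1, a small LIM-domain protein, was at 3303, 3596, 2761, 3268 and 3353 CPM and at 1443, 1722 and 1529 CPM (-1.06 ± 0.156, edgeR adjusted p = 0.00205). Tmem176b, a cation channel of endosomes, was at 337, 441, 268, 246 and 364 CPM and at 72.3, 122 and 33.1 CPM (-2.03 ± 0.299, edgeR adjusted p = 0.00205), and its neighbor Tmem176a also fell (-1.40). Gm9733 (-2.07), the matrix protein gene Tgfbi (-1.38), Naaa (-1.64), Tnfrsf21 (-1.60), the leukotriene B4 receptor gene Ltb4r1 (-1.57), Aif1 (-1.35), Sirpb1c (-1.06), H2-DMa (-1.02), Plbd1 (-0.98), Emp3 (-0.92), Ifi27l2a (-0.87), Anxa2 (-0.78) and Tmsb10 (-0.75) fell too, as did Gm26532 (-1.66) and Tppp3 (-0.81). Outside the genes of the cut, 21 of the 24 that fell and 3 of the 19 that rose had a higher median level on the classical than on the patrolling side in B6→B6 mice, as did 43.7% of all genes tested. 

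With the stricter cut, the 9 genes that passed were among the 45 and had the same sign. They included Bcl2a1a (1.59) and Zfp36l1 (1.17) on the higher side and Fos (-1.97), Gm9733 (-1.78), Tgfbi (-1.21), Crip1 (-1.02), Anxa2 (-1.01) and Dusp1 (-0.99) on the lower side. Bcl2a1a, Zfp36l1, Fos, Gm9733 and Crip1 passed the threshold in all 14 alternatives that kept the filter on low counts, and Tmem176b passed in 13.

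**Figure D4:**
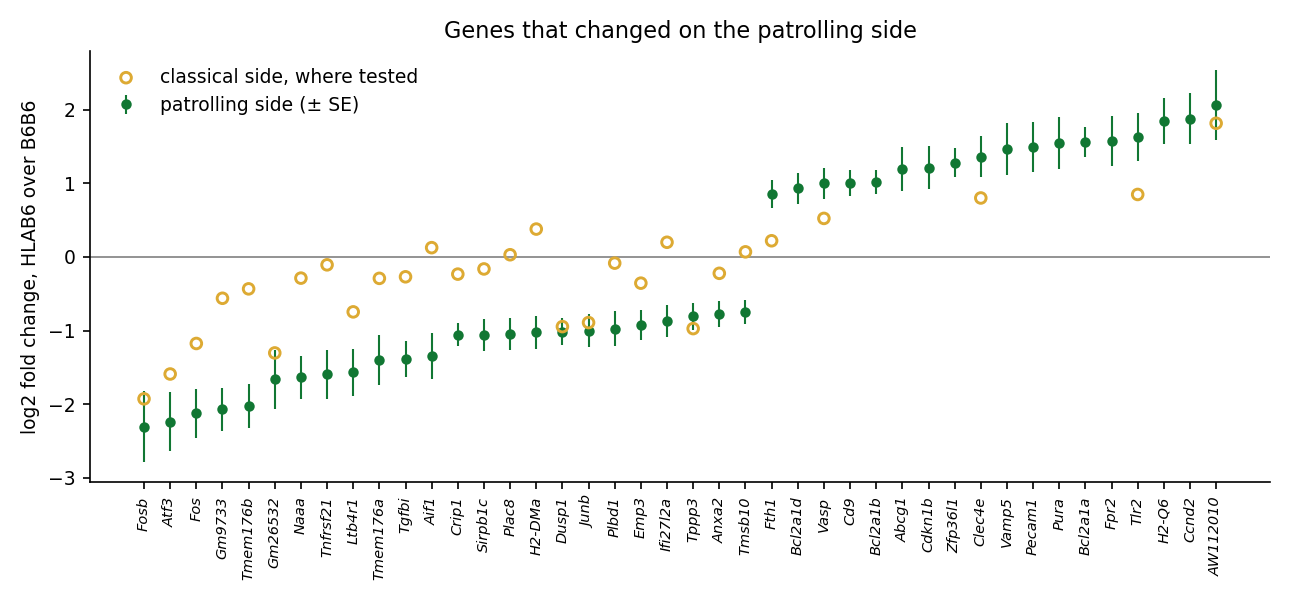
Log2 fold change (HLAB6 over B6B6, vertical axis) of 42 of the 43 genes past the threshold on the patrolling side that were not used for the cut (green, with SE; 5 B6B6 and 3 HLAB6 mice), with the value of the classical side (open yellow circles) where the gene was tested there. The falls run from -2.31 for Fosb to -0.75 for Tmsb10 and the rises from 0.86 for Fth1 to 2.06 for AW112010, and the values of the classical side lie closer to 0 for Plac8, Crip1 and Tmem176b.

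On the classical side, 0 of 2051 genes passed the threshold in the 7 mice with at least 10 such cells (B6→B6 mouse 1, with 8, was left out). At an unadjusted p under 0.05 there were 36 higher (1.76%) and 50 lower (2.44%) genes, and DESeq2 called 2. The immediate early list was below 0 in 12 of 12 members (49.4% of all genes) with a median of -0.80, and Fos had a log2 fold change of -1.18 (edgeR adjusted p = 0.387). IFN-γ response genes were above 0 in 6 of 7 members (50.6% of all genes) with a median of 0.94.

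Since a gene past the threshold on only 1 side is not thereby shown to differ between the sides, the difference of the responses was tested itself, over 3074 genes of these 7 mice, each mouse serving as its own block. In this comparison, added after the data were seen, the response was higher on the patrolling side for 8 genes (0.260%) and lower for 19 (0.618%). Leaving out each mouse gave between 15 and 33 genes in all, with the 15 reached without B6→B6 mouse 2 and 18 without HLA→B6 mouse 1.

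MHC II genes, which present antigen to CD4+ T cells, made up 5 of the 19. H2-Aa, the α chain of I-A, was at 4102, 1674, 1533 and 1851 CPM on the patrolling side of B6→B6 mice 2 to 5 and at 751, 1388 and 132 CPM in the HLA→B6 mice. On the classical side it was at 3530, 1418, 1694 and 1982 CPM and at 1224, 5691 and 745 CPM. All 3 HLA→B6 mice were lower on the patrolling than on the classical side, HLA→B6 mouse 2 was the highest of its group on both, and the log2 response differed by -1.67 ± 0.260 (edgeR adjusted p = 0.00109). H2-Eb1 (-1.74), H2-Ab1 (-1.56), H2-DMa (-1.32) and the invariant chain gene Cd74 (-1.03) differed likewise. On the patrolling side itself 7 of 7 tested MHC II genes were below 0 (median -1.12) with H2-DMa past the threshold, while all 16 tested MHC I genes were above 0 (49.9% of all genes, median 0.33) with H2-Q6 past it. On the classical side 7 of 7 MHC II genes were above 0 (median 0.29) with 0 past the threshold. The authors gave H2-Aa, H2-Ab1, H2-Eb1 and Cd74 to SoupX as genes that report free RNA. The B cell and PC markers were at 234 CPM in HLA→B6 mouse 2 and 534 CPM in HLA→B6 mouse 3, and their part in these values was not tested.

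Plac8 differed as well. On the classical side it was at 7521, 6062, 6750 and 4744 CPM in B6→B6 mice 2 to 5 and at 6450, 6163 and 6479 CPM in HLA→B6 mice, with overlapping groups. The patrolling side of the same mice had 4762, 3868, 3988 and 4266 CPM and 2116, 2021 and 1569 CPM. The difference of the log2 responses was -1.23 ± 0.167 (edgeR adjusted p = 0.000325). S100a6, S100a4, Tmsb10, Crip1, Tgfbi, Tmem176b, Gm9733, Ifi205, Ifi27l2a and Clec4a2 were the other genes with a lower response on the patrolling side, beside the cut genes Ly6c2, Ccr2 and Chil3.

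The inflammatory chemokine genes Ccl3 (1.99), Ccl4 (3.13) and Cxcl2 (1.62), which attract lymphocytes and neutrophils, had a higher response on the patrolling side, as did the lipopolysaccharide co-receptor gene Cd14 (1.88), the NF-κB inhibitor gene Nfkbia (1.05) and Cdkn1b (2.11). Cxcl2 was at 387, 347, 753 and 74.3 CPM on the classical side of B6→B6 mice and at 86.4, 121 and 83.8 CPM in HLA→B6 mice. The patrolling side had 173, 75.2, 224 and 0 CPM and 98.4, 98.7 and 51.7 CPM. The classical side of 3 B6→B6 mice was thus high, and neither side alone passed the threshold for Cxcl2, Ccl3 or Cd14. Ccl4 was too low to be tested on the classical side alone and did not pass on the patrolling side alone. Scgb1a1, which also had a higher response there, is a club cell marker that the authors gave to SoupX as a gene of free RNA. It had a level above 0 in B6→B6 mouse 4 and HLA→B6 mouse 1 alone.

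**Figure D5:**
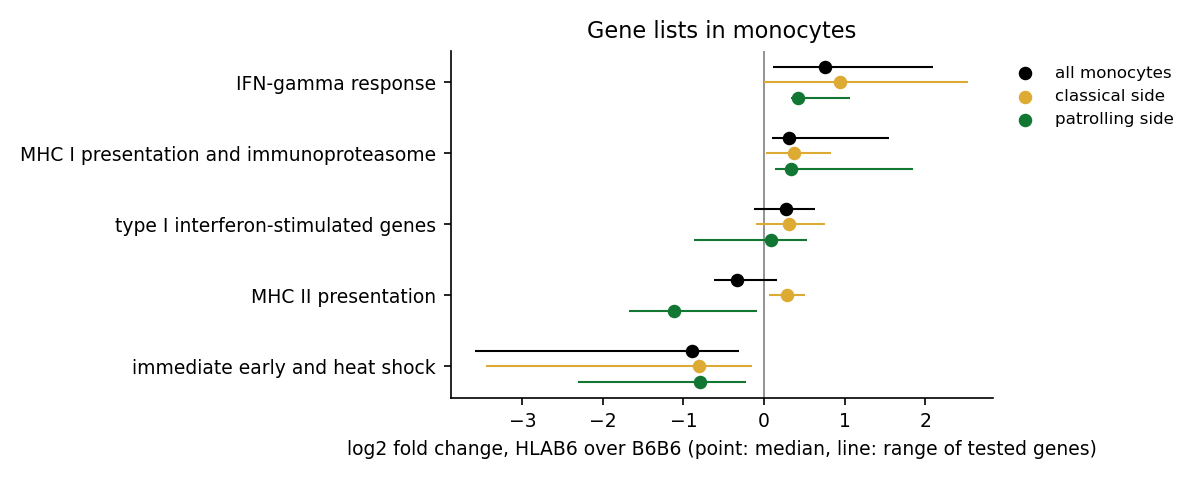
Median (points) and range (lines) of the log2 fold changes (HLAB6 over B6B6, horizontal axis) of the tested genes of 5 lists in all monocytes (black), on the classical side (yellow) and on the patrolling side (green). The immediate early and heat shock list has medians of -0.90, -0.80 and -0.80, and the MHC II list has medians of -0.33, 0.29 and -1.12.

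The response of the monocytes was lastly set against that of other cells of the same mice, by the interaction of cell type and group with the mouse as a block. Against alveolar macrophages, which reside in the air spaces, 6382 genes were tested and the response was higher in monocytes for 49 (0.768%) and lower for 104 (1.63%). The total was 39 without HLA→B6 mouse 2, 74 without B6→B6 mouse 4 and 90 without B6→B6 mouse 1. This fit was not repeated without the cells with shared barcodes, whose removal takes out 250 alveolar macrophages. In 6 of 9 genes of MHC II presentation the monocytes had the lower response, H2-Aa by -3.26 ± 0.618 (SE, edgeR adjusted p = 0.0171). H2-Aa was at 2967, 3788, 1705, 2074 and 1823 CPM in B6→B6 and at 1066, 3291 and 571 CPM in HLA→B6 monocytes. In alveolar macrophages it was at 1764, 3549, 2714, 479 and 261 CPM and at 6410, 8713 and 2431 CPM. Monocytes of the HLA→B6 group thus reached a level at or below that of their controls in 2 of 3 mice, while the HLA→B6 macrophages of 2 mice lay above all others.

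The lysosomal protease gene Ctss (-1.86 ± 0.241, edgeR adjusted p = 0.00204) and the lysozyme gene Lyz2 (-1.65 ± 0.228, edgeR adjusted p = 0.00261) also differed. Ctss was between 2371 and 3079 CPM in B6→B6 and between 2531 and 3142 CPM in HLA→B6 monocytes, whereas it was between 2662 and 5850 CPM and between 8631 and 14511 CPM in alveolar macrophages. Lyz2 was between 21854 and 32817 CPM and between 20547 and 33230 CPM in monocytes, and between 11551 and 23294 CPM and between 39332 and 42563 CPM in macrophages. For both genes the monocyte groups overlapped and the macrophage groups did not. The authors gave Lyz2 to SoupX as a gene that reports free RNA. Among the immediate early genes Fos (-0.92, edgeR adjusted p = 0.0376), Junb (-1.10) and Atf3 (-2.48) had a lower response in monocytes than in alveolar macrophages.

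Against T cells 0 of 6850 genes and against myeloid cells 0 of 5385 genes passed the threshold in edgeR, the tool run for these differences. At an unadjusted p under 0.05 there were 260 higher (3.80%) and 147 lower (2.15%) genes against T cells and 126 higher (2.34%) and 114 lower (2.12%) genes against myeloid cells. These comparisons do not show that the responses were alike.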

How the data were processed

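Whole grafts were dissociated and sequenced with the 10x Genomics 3′ assay, 1 library per mouse, with 10000 cells loaded. Per the labels, the authors aligned the reads with Cell Ranger to mm10 and deposited a table of UMI counts per gene and cell (17921 genes), after filters of 200 UMIs per cell and 3 cells per gene. Cells were clustered by the authors in Seurat and named with clustifyr, and free RNA was estimated with SoupX from genes they chose. The sources used here do not say whether the deposited counts precede that correction, so genes on that list are named beside their values. Their cell types were used as given and no cells were reclustered.

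Counts were summed per mouse, or per mouse and side, with at least 10 cells. The groups were compared with edgeR 4.0.16 in R 4.3.3 (TMM scaling, filterByExpr with a minimum count of 10, quasi-likelihood F test, Benjamini-Hochberg adjusted p under 0.05), which was tested on simulated data first. Differences of response used the interaction of group with cell type or side. Levels between groups are TMM-scaled CPM in the fits of a single cell type or side. Levels between cell types or sides, and in the interactions, are plain CPM without TMM, so that they can differ from the former for the same gene. Shares were compared by an exact permutation test (scipy 1.17.1), two-sided. Doublets were marked with Scrublet (scanpy 1.11.5, expected rate 0.06) and kept, and a shared barcode stayed with the library that had at least 5 times more UMIs where cells were left out. The depth of 108878 to 2593836 UMIs per mouse limits the precision in the B6→B6 mice with few monocytes.

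The members, the 25 gene lists and the lists of both sides were chosen with earlier results of these data known. The genes named are the markers, up to 12 genes each way past the threshold whose mice did not overlap, the genes nearest to it where fewer passed, list members past the threshold and the most abundant 3 of a list, the 15 genes with the largest ratio to any other cell type at a level of at least 50 CPM, and 5 each way for sides and interactions. Some genes that the rule names are not reported here. Other genes were chosen after their values were seen, among them the remaining genes called on the patrolling side and the rest of those called between the sides. Alternatives were DESeq2 1.42.0, its size factors in edgeR, no filter on low counts, each mouse left out, the replicate number as a block, linked libraries or the balance of the sides as covariate, and the removal of doublets, shared barcodes, shallow cells or free RNA genes. The free RNA genes left out, in the summed monocytes alone, were secretoglobin, surfactant, hemoglobin and immunoglobulin genes with S100a8, S100a9 and Alas2. MHC II genes, Cd74 and Lyz2 stayed in. Not every alternative was run for every comparison. The comparison of the sides, the minimum of 100 monocytes, the stricter cut of 4 genes and the fit of mice 1 to 3 without a block were added after the data were seen.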

Additional observations from a re-analysis of the deposited data

Results flagged for a closer look

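A sample far from the others of its group was found in 1 of the 34 groups of values examined, and chance gives about 1 in 20. B6→B6 mouse 3 had 42.4% of its monocytes on the patrolling side after thinning to 1000 UMIs, far below the other B6→B6 mice.

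The response to the graft (the log2 fold change of HLA→B6 over B6→B6) differed between monocytes and alveolar macrophages for these genes, by the test of the difference itself. It was higher in monocytes for Mcam (8.63), Wfdc21 (5.97), Xlr (4.83), Rhof (4.51) and Serpinb1a (4.50). For Galnt9 (-6.14), Matk (-5.36), Sorl1 (-4.28), Gm9733 (-4.16) and Slamf7 (-3.82) it was lower in monocytes. Several of these genes were at or near 0 in all mice of a group in 1 of the cell types, such as Mcam at 0 CPM in B6→B6 monocytes, so that the fitted size depends on the prior count and is no bound. Wfdc21 was between 744 and 1417 CPM in B6→B6 alveolar macrophages and between 3.27 and 386 CPM in those of HLA→B6 mice.

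Between the sides, the response was higher on the patrolling side for Cdkn1b (2.11), Ccl3 (1.99), Cd14 (1.88) and Cxcl2 (1.62). It was lower there for Ifi205 (-2.66), Ccr2 (-2.35), Chil3 (-2.16), H2-Aa (-1.67) and Tmem176b (-1.62). Ccr2 and Chil3 were used to place the cells.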

How the results depend on the processing

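Fos stayed past the threshold in all 21 alternatives in monocytes. The number of genes called in monocytes (1 as reported) was 15 with DESeq2, 14 with the balance of the sides as covariate, 5 with the linked libraries as covariate, 7 with mice of at least 100 monocytes, 3 without doublets, 2 without shared barcodes, 2 with cells of at least 500 UMIs, 98 without the filter on low counts (which moved the median of all genes to 0.12) and 1 to 6 without 1 mouse. On the patrolling side (45) it was 137 without the filter, 9 with the stricter cut and 6 to 48 without 1 mouse. On the classical side (0) it was 2 with DESeq2, 38 without the filter and 0 to 3 without 1 mouse. Differences of response numbered 410 without the filter and 39 to 167 without 1 mouse against alveolar macrophages (153), 65 and 0 to 4 against T cells (0), 21 and 0 to 2 against myeloid cells (0), and 42 and 15 to 33 between the sides (27). The cause of these changes was not tested. The patrolling share differed by -2.43 to 12.1 points without 1 mouse, below 0 without B6→B6 mouse 3 (-1.54), HLA→B6 mouse 2 (-0.286) or HLA→B6 mouse 3 (-2.43), and by -1.35 points as the share of UMIs. No value of a single named gene changed sign in 1179 alternatives, of which 229 lost the threshold and 57 gained it.

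With the replicate number as a block, mice 1 to 3 of each group gave 11 genes, and the same mice without a block gave 9. Correlations of the deviations of mice with the same number were -0.180 to 0.154, and in 1 of 3 cases a mouse correlated best with its own number. So few cases cannot decide whether the numbers pair the mice. The 8 mice, and the 49 and 54 monocytes of B6→B6 mice 1 and 5, limit what could be detected.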

Other observations

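The median log2 fold change of all genes in the summed monocytes was -0.01. Adhesion and migration genes were above 0 in 7 of 14 tested members with a median of 0.00142, costimulatory and inhibitory receptors in 4 of 8 with a median of -0.03, and inflammatory cytokines and their regulators in 3 of 7 with a median of -0.24. Fc and complement receptors and complement genes were above 0 in 9 of 12 with a median of 0.24. The list of 10 monocyte markers was below 0 in 7 of 10 with a median of -0.06, Plac8 among them at -0.29 (edgeR adjusted p = 0.999). No gene of these lists was past the threshold. Of the cell cycle genes, 2 were abundant enough to be tested.

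Of the marker lists of other cells, tested members had a median of -1.24 for erythrocytes (2 members), -0.73 for neutrophils (2) and 0.37 for alveolar macrophages (1). The erythrocyte markers summed to 6947 CPM in the monocytes of B6→B6 mouse 3 and to 1133 CPM in those of HLA→B6 mouse 1, and to 0 CPM in the other 4 B6→B6 mice. T cell markers summed to at most 101.01 CPM, natural killer cell markers to at most 27.4 CPM, platelet markers to at most 87.0 CPM and epithelial markers to at most 237 CPM in any mouse. The authors gave the erythrocyte markers Hbb-bs, Hbb-bt, Hba-a1 and Hba-a2 and the epithelial markers Scgb1a1 and Sftpc to SoupX as genes that report free RNA.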
